A study of Sus scrofa with 4 samples.

Results

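ACLY, SCD and HMGCS1, which encode enzymes at early or rate-setting steps of lipid synthesis, were followed in porcine (Sus scrofa) blastocysts. Every probe that the platform annotation gives 1 of these symbols was taken, whatever its values: 5 of the 43794 probes on the array, 2 for ACLY, 2 for SCD and 1 for HMGCS1. They had developed from control oocytes or from oocytes that met high NEFAs, which are non-esterified fatty acids, the form in which fat stores enter the blood. Each of 4 2-colour arrays compared RNA of NEFA blastocysts with RNA of control blastocysts, with NEFA RNA in Cy3 on arrays 1 and 2 and in Cy5 on arrays 3 and 4. The design names 4 pools of 10 blastocysts from days 7 and 8, without saying whether that is per condition, and all RNA was amplified before labelling. The labels do not tie pools to separate cultures. The p-values therefore cover only the spread between these arrays, whose small number limits the precision.

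Lipid synthesis in the cytosol starts from citrate exported by mitochondria. ATP citrate lyase (ACLY) cleaves that citrate to acetyl-CoA, which feeds both fatty acid and sterol synthesis. HMG-CoA synthase 1 (HMGCS1) condenses acetyl-CoA with acetoacetyl-CoA on the way to mevalonate and cholesterol, and stearoyl-CoA desaturase (SCD) places a double bond in saturated fatty acids, which turns stearate into oleate. In mammalian cells the genes of all 3 enzymes are known targets of the sterol regulatory element-binding proteins, and pig oocytes and embryos are known for their large stores of lipid droplets. The comparison asked whether exposure of the oocyte to fatty acids left a difference in these transcripts in the embryo.

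Between 38.3% and 49.0% of probes were above background in a channel, and 17145 probes were kept for testing. A spot counted as above background when it exceeded the mean of the negative controls of its array and channel by over 2 of their SDs. Of all 10024 genes with a named probe, 4686 were measured. Of the markers of the labelled stage, 6 of 8 trophectoderm genes with a named probe were measured, GATA2, GATA3, TFAP2A, TFAP2C, TEAD4 and ELF5. EOMES and HAND1 were not. Of 3 hypoblast genes with a named probe, GATA6 and PDGFRA were measured and HNF4A was not. None of 3 inner cell mass genes with a named probe (SOX2, KLF4 and PRDM14) was measured, and POU5F1 and NANOG had no named probe used here. Genes of other cells were also measured, 6 of 10 for the oocyte and 2 of 6 for cumulus and granulosa cells (AMH and FST). The arrays ran against each other: over the kept probes, the log2 ratios of NEFA over control correlated at r = -0.54 between arrays 2 and 4, at -0.24 between arrays 1 and 2, which share a dye orientation, and at 0.16 between arrays 3 and 4. These r values are across probes, which are not independent, and they contain each probe's preference for a dye. When arrays 2 and 3 traded their labelled orientations, 1193 probes passed the test against 0 as labelled, so members' values under that exchange are given too. Trading arrays 1 and 4 instead was not run. It reverses the sign of every array relative to that exchange, so the p-values would be the same and every direction opposite.

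None of the 3 enzymes differed detectably between NEFA and control blastocysts. HMGCS1 averaged 0.47 ± 0.24 on the log2 scale (limma SE, n = 4 arrays), ACLY 0.32 ± 0.21 and SCD 0.09 ± 0.14 by their brighter probes, the dimmer SCD probe 0.05 ± 0.24, each with an adjusted p of 1.00 after rounding. The fit called 0 of the 17145 probes at an adjusted p of 0.05 (0%), and 264 (1.54%) were at an unadjusted p under 0.05, with 0 of the 5 probes among them. The 95% intervals of the fold of NEFA over control ran from 0.921 to 2.07 for HMGCS1, from 0.870 to 1.80 for ACLY and, by its dimmer probe, from 0.689 to 1.56 for SCD. The narrower interval of the brighter SCD probe, 0.838 to 1.36, is not a full measure of its error, because its control spots on arrays 1 and 2 were saturated and the ratios there are upper limits. All 5 means were above 0, as were 48.4% of those of the kept probes. The mean of the brighter SCD probe is then an upper limit too, and its sign is not settled. Every spot of the 5 probes exceeded background, and none carried a scanner flag. Each pool holds several cell types, so fewer cells of a type and less RNA per cell cannot be told apart.

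**Figure D1:**
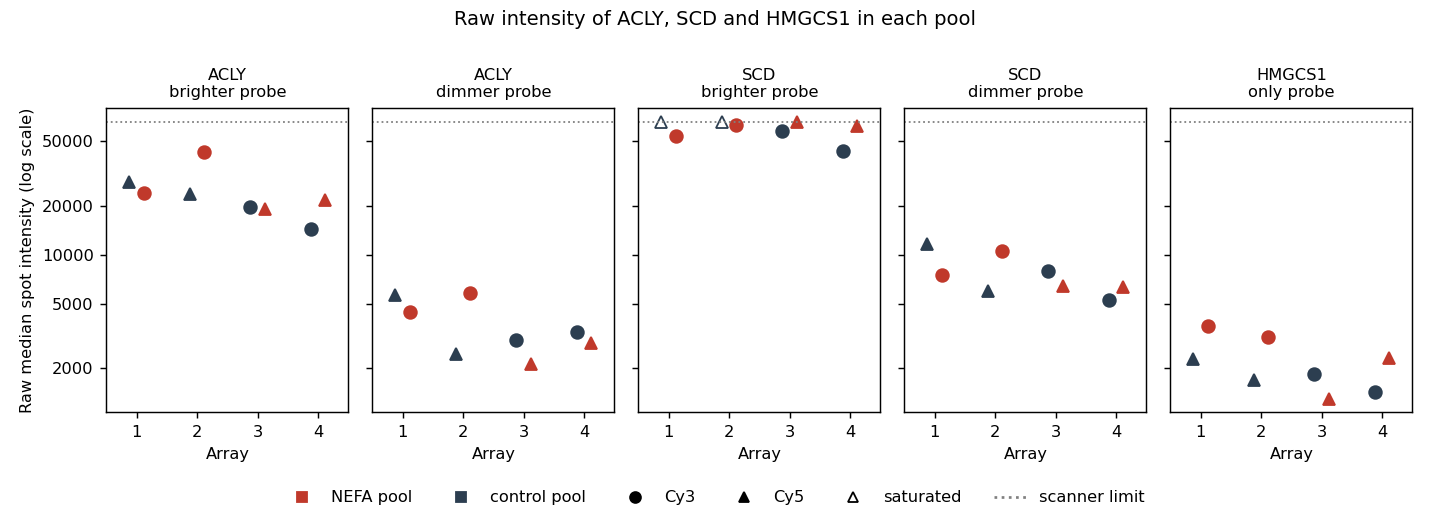
Raw median intensity of each spot (log scale, arbitrary scanner units) for the 5 probes, by array; red marks NEFA pools, dark blue control pools, circles Cy3, triangles Cy5, open symbols saturated spots and the dotted line the scanner limit of 65535. The brighter SCD probe lies between 43801 and 65535 and reaches the limit in the control pools of arrays 1 and 2, while no spot of the other probes reaches it; heights of different probes are not comparable.

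ACLY supplies cytosolic acetyl-CoA and was read by a pair of probes. The raw median intensity of the brighter probe was 23951 in the NEFA and 28136 in the control pool of array 1, and 42931 against 23706 on array 2. It was 19041 in the NEFA and 19808 in the control pool of array 3, and 21832 against 14381 on array 4. The NEFA pool was thus above the control pool on arrays 2 and 4 and below it on arrays 1 and 3, and the highest of the 8 values was the NEFA pool of array 2. After normalisation its log2 ratios were -0.13, 0.75, 0.00 and 0.66 on arrays 1 to 4, with an SD of 0.45. Among the kept probes of the same array these ratios stood at the percentiles 41.3, 97.9, 48.5 and 87.3, so ACLY was near the middle on arrays 1 and 3 and near the top on array 2. The normalised log2 level was 14.67 ± 0.42 in NEFA and 14.34 ± 0.21 in control pools (SD, n = 4), and the 2 groups overlapped.

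The dimmer ACLY probe gave raw intensities of 4460, 5801, 2121 and 2860 in the NEFA pools of arrays 1 to 4. The control pools gave 5678, 2435, 2973 and 3335, so the NEFA pool was the brighter channel on array 2 alone. Its log2 ratios were -0.43, 0.96, -0.25 and 0.05, a range of 1.39 that exceeded the range of 83.4% of kept probes. The mean was 0.09 ± 0.25 (SE, n = 4, limma adjusted p = 1.00 after rounding). This spot lay in an area of raised local background, 129 to 404 against array medians of 31 to 71, which amounted to 2.27% to 11.6% of its raw signal. For the brighter probe that share was 0.305% to 0.605%.

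Both ACLY probes ordered the arrays alike, with array 2 highest, array 4 next, then array 3 and array 1. How many of all kept probes share this order was not counted. Their ratios had the same sign on 3 of 4 arrays, and on array 3 the brighter probe was at 0.0040. The brighter minus the dimmer probe was 0.30, -0.21, 0.25 and 0.61 on arrays 1 to 4. The mean absolute difference of 0.34 was close to the median of 0.36 over 1288 probe pairs of 764 genes, so the probes of ACLY disagreed about as much as those of other genes. Averaged over both probes, ACLY stood at 0.20 ± 0.22 (SE, n = 4, limma adjusted p = 1.00 after rounding in a fit of 1 value per gene). Its value depended on single arrays. The fits without an array kept the dye intercept, so the lone array of an orientation weighed as much as the other pair together. They give fitted values, not plain means of the remaining ratios. Without array 2 the brighter probe was fitted at 0.10 and the dimmer at -0.26. Without array 4 they were at 0.16 and 0.0096, and without array 1 at 0.54 and 0.43. Exchanging arrays 2 and 3 put the probes at -0.06 and -0.27.

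**Figure D2:**
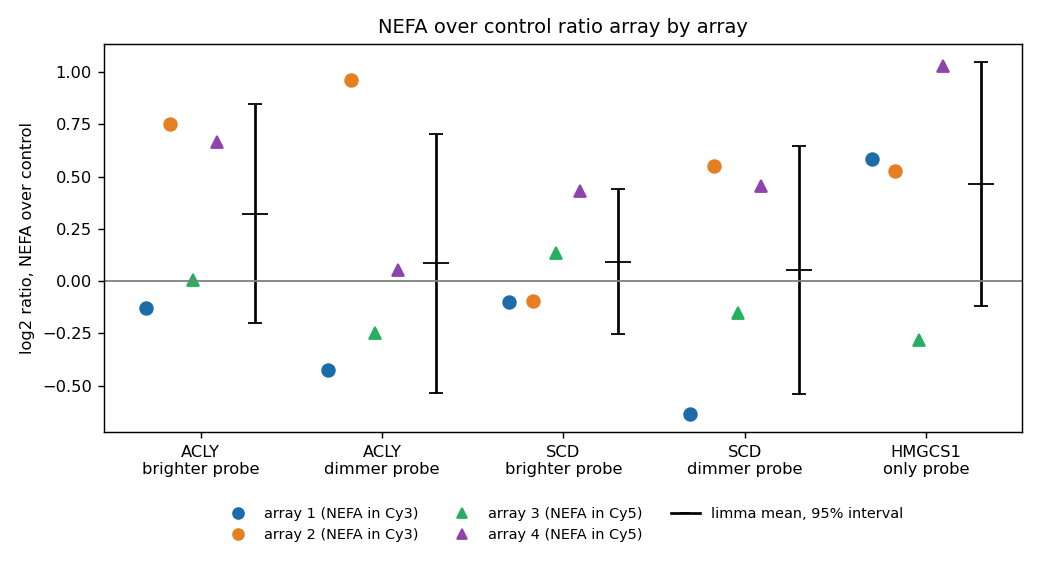
Log2 ratio of NEFA over control for each probe on each array (circles, NEFA in Cy3; triangles, NEFA in Cy5), with the limma mean and its 95% interval in black. Every interval includes 0, array 4 is above 0 for all 5 probes, and array 2 ranges from -0.09 for the brighter SCD probe to 0.96 for the dimmer ACLY probe.

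SCD, the desaturase that makes oleate, had 1 probe at the top of the scanner's range. The brighter probe read 65535, the highest value the scanner records, in the control pools of arrays 1 and 2, which were in Cy5. Its other control values were 57882 and 43801 on arrays 3 and 4, and its NEFA values were 54005, 62541, 65521 and 61637 on arrays 1 to 4. On each array the Cy5 channel was the brighter, whichever condition it held, and the dye intercept of the fit was 0.19 ± 0.14 (SE, Cy5 over Cy3). Its log2 ratios of -0.10, -0.09, 0.13 and 0.43 covered a range of 0.53, against a median range of 0.77 over all kept probes. A saturated spot records at most the limit, so on arrays 1 and 2 the control signal can only be higher and the ratio lower than given. With saturated spots left out no value can be fitted, because both arrays with NEFA in Cy3 are lost. The mean pixel intensity of the same spots ran from 34720 to 41281 over the 8 pools, but where the median is at the limit many pixels are too, so it does not escape saturation.

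The dimmer SCD probe was far from saturation and is the one that can show a range of ratios. Its raw intensities were 7476, 10547, 6459 and 6287 in the NEFA pools of arrays 1 to 4. Those of the control pools were 11619, 6002, 7982 and 5253, so NEFA was higher on arrays 2 and 4 and lower on arrays 1 and 3. The log2 ratios were -0.64, 0.55, -0.15 and 0.46, which came to a mean of 0.05 ± 0.24 (SE, n = 4, limma adjusted p = 1.00 after rounding) and a 95% interval of the fold from 0.689 to 1.56. The level was 12.88 ± 0.19 in NEFA and 12.83 ± 0.41 in control pools (SD, n = 4, log2), with overlapping groups. The order of the arrays was that of both ACLY probes. It differed from the order of the brighter SCD probe, which put array 4 first and array 3 second.

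The SCD probes had the same sign on 2 of 4 arrays. They differed by 0.54 on array 1 and by -0.64 on array 2, brighter minus dimmer, where the control spot of the brighter probe was saturated. As the ratios of the brighter probe there are upper limits, so are both differences. No reading was at the limit on arrays 3 and 4. On array 3, where the spot read 65521 in the NEFA pool, just under the limit, they differed by 0.29, and on array 4 by -0.03. Their mean absolute difference of 0.37 was again near the median of all probe pairs. Over all pairs, 13.5% had the same sign on 4 of 4 arrays, 31.8% on 3 and 31.5% on 2. The fitted value of the dimmer SCD probe was 0.35 without array 1, -0.24 without array 2 and -0.10 without array 4. Exchanging arrays 2 and 3 gave -0.14, and 0.07 for the brighter probe. Median centring of each array in place of loess gave -0.03.

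HMGCS1, the cytosolic enzyme of the mevalonate route, had 1 probe, so no second probe could check it. The raw intensity was 3616 in the NEFA and 2288 in the control pool of array 1, and 3096 against 1703 on array 2. It was 1300 against 1848 on array 3 and 2296 against 1435 on array 4. NEFA pools were thus brighter on 3 of 4 arrays, and array 3 went the other way. The log2 ratios were 0.58, 0.53, -0.28 and 1.03 (SD 0.55), at the percentiles 93.7, 93.5, 13.4 and 94.2 of the kept probes of each array. On array 4 NEFA was 2.04-fold the control. The normalised log2 level was 11.22 ± 0.39 in NEFA and 10.76 ± 0.24 in control pools (SD, n = 4), and the lowest NEFA pool, 10.65 on array 3, lay below the highest control pool, 10.93.

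The unadjusted p of HMGCS1 was 0.0984 in limma, the smallest of the 5 probes, and its adjusted p was 1.00 after rounding. Its fitted value, with the dye intercept kept, was 0.14 without array 4 and 0.79 without array 3. The sign was kept under every alternative run, from 0.14 to 0.79, though some of these cannot change the estimate. It was 0.34 for arrays 2 and 3 exchanged, a sign that would turn with arrays 1 and 4 exchanged instead, which was not run. A ratio above 0 on at least 3 of 4 arrays, as for HMGCS1 and the brighter ACLY probe, was found in 26.3% of kept probes. For the ACLY probe this rests on 0.0040 on array 3. That ratio was -0.03 with median centring and -0.09 in the authors' deposited table. None of the 5 probes had the same direction on 4 of 4 arrays, which 7.85% of kept probes had. None had NEFA and control levels that did not overlap, which 1.17% had, and none had a mean of 1.5-fold or more, which 0.507% had.

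As labelled, array 4 placed all 5 probes above 0, array 2 placed 4, array 3 placed 2 and array 1 placed 1. Those of array 3 include the brighter ACLY probe, at 0.0040. With the signs of arrays 2 and 3 turned, array 2 placed 1 and array 3 placed 3. The share of all kept probes above 0 was 46.0%, 47.7%, 52.2% and 50.6% on arrays 1 to 4. The percentiles of the 5 probes ran from 41.8 to 99.2 on array 2 and from 53.9 to 94.2 on array 4, with the brighter SCD probe lowest on the first and the dimmer ACLY probe lowest on the second. On array 1 the probes parted, with HMGCS1 at the percentile 93.7 and the dimmer SCD probe at 9.50.

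Among the other enzymes of fatty acid synthesis, 7 of 16 genes with a named probe were measured, and 0 passed the test. Of these 2 were above and 5 below 0, with a median of -0.08 against -0.01 over all 4686 measured genes, of which 46.1% were above 0. The smallest p belonged to SLC25A1, the mitochondrial carrier that exports the citrate that ACLY cleaves, at -0.39 ± 0.25 (SE, n = 4, unadjusted p = 0.173). Its ratios were -0.70, 0.33, -0.10 and -1.08, so it was below 0 on array 4 where ACLY was above, and 1 of its 2 kept probes had the opposite sign. ELOVL2, an elongase of polyunsaturated fatty acids, was at -0.10 ± 0.13 (SE). FASN had no named probe used here, and ACACA and SCD5, the other stearoyl-CoA desaturase, had probes that were not kept.

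Genes that make or divert acetyl-CoA were measured for 7 of 10 with a probe, 4 above and 3 below 0, with a median of 0.03 and 0 past the test. CS, the mitochondrial citrate synthase that makes the substrate of ACLY, had the smallest p, at -0.64 ± 0.27 (SE, n = 4, unadjusted p = 0.0582, limma adjusted p = 1.00 after rounding). Its ratios of -1.11, 0.08, -0.24 and -1.28 put it low on arrays 1 and 4, and both of its kept probes had the same sign. Its 95% interval ran from -1.31 to 0.03, and its value was -0.34 to -0.94 over the alternatives run. PDK3, a kinase that switches off pyruvate dehydrogenase, was at -0.27 ± 0.19 (SE).

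**Figure D3:**
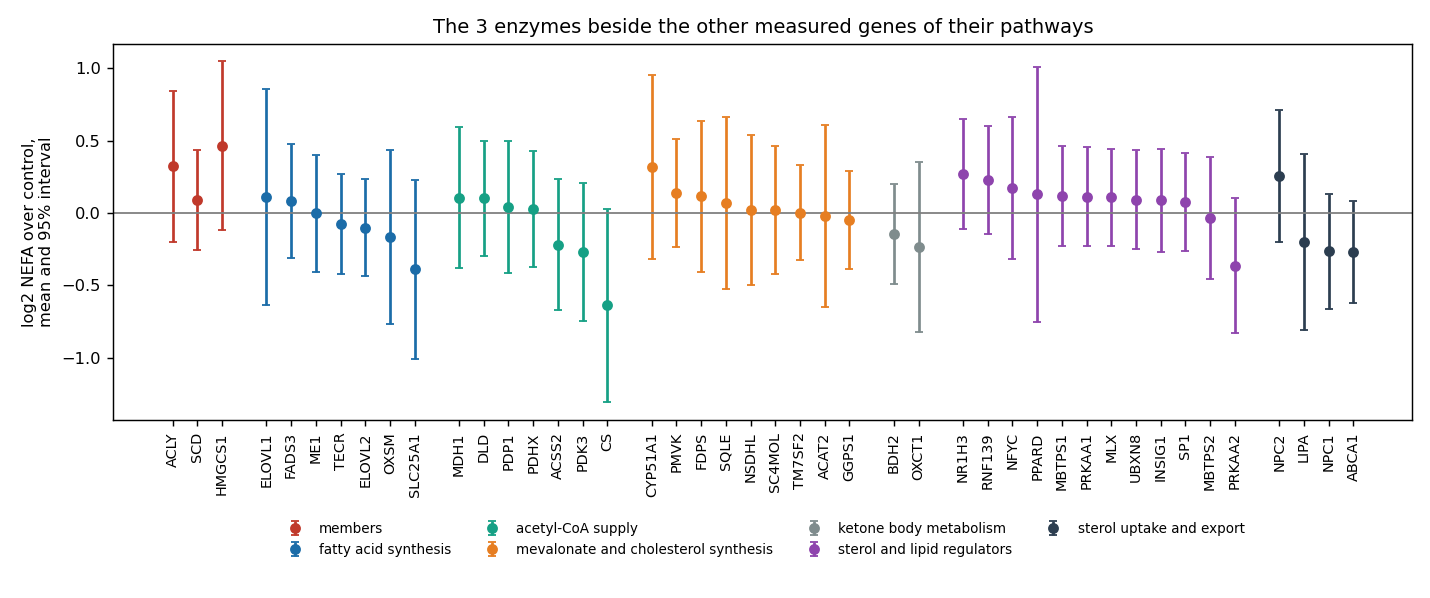
Mean log2 NEFA over control with its 95% interval (limma, n = 4 arrays) for the representative probe of ACLY, SCD and HMGCS1 and of each other measured gene of 6 pathway lists, ordered by value within a list. All intervals shown include 0; HMGCS1 has the highest mean and CS the lowest.

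Of the other genes of mevalonate and cholesterol synthesis, 9 of 10 with a named probe were measured, with a median of 0.02 and 0 past the test. Of these 7 were above and 2 below 0, where 46.1% of all measured genes were above 0. CYP51A1, the sterol demethylase, was at 0.32 ± 0.26 (SE, n = 4) with ratios of 0.01, 1.17, -0.42 and 0.49, and at 0.026 to 0.61 with 1 array left out. PMVK, which phosphorylates mevalonate phosphate, was at 0.14 ± 0.15 (SE). SQLE, the squalene epoxidase, was at 0.07 ± 0.24 (SE), with -0.56, 0.74, -0.11 and 0.22 on arrays 1 to 4, the array order of ACLY. For ketone bodies, BDH2 at -0.15 ± 0.14 and OXCT1 at -0.23 ± 0.24 (SE) were the 2 measured genes. The BDH2 probe was above background in 2 of 4 NEFA and 3 of 4 control pools, so it was kept through the control pools alone.

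On array 2 all 9 measured genes of that list were above 0, with a median of 0.45 and a range of 0.02 to 1.17, while 49.5% of all measured genes were. The median there was 0.25 with median centring and 0.59 in the authors' deposited table, with 9 of 9 above 0 in both. Of all measured genes 48.3% and 55.4% were above 0 in these. With median centring the median on array 4 was higher, at 0.45. On array 3 only 2 of the 9 were above 0, against 51.9% of all measured genes, with a median of -0.11. The medians on arrays 1 and 4 were 0.01 and 0.15. On array 1 the number above 0 was 5 of 9, but 1 of 9 with median centring, against 44.0% and 36.6% of all measured genes. Fatty acid synthesis had its highest median, 0.43, on array 2 as well, with 5 of 7 above 0, and 0 of 7 were above 0 on array 3. With the signs of arrays 2 and 3 turned, 0 of 9 sterol genes were above 0 on array 2 and 7 of 9 on array 3, and of the fatty acid genes 2 of 7 and 7 of 7. Of all kept probes 52.3% and 47.8% were. The gene lists were chosen with earlier results of these data known, the genes are not replicates, and no difference between arrays was tested.

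**Figure D4:**
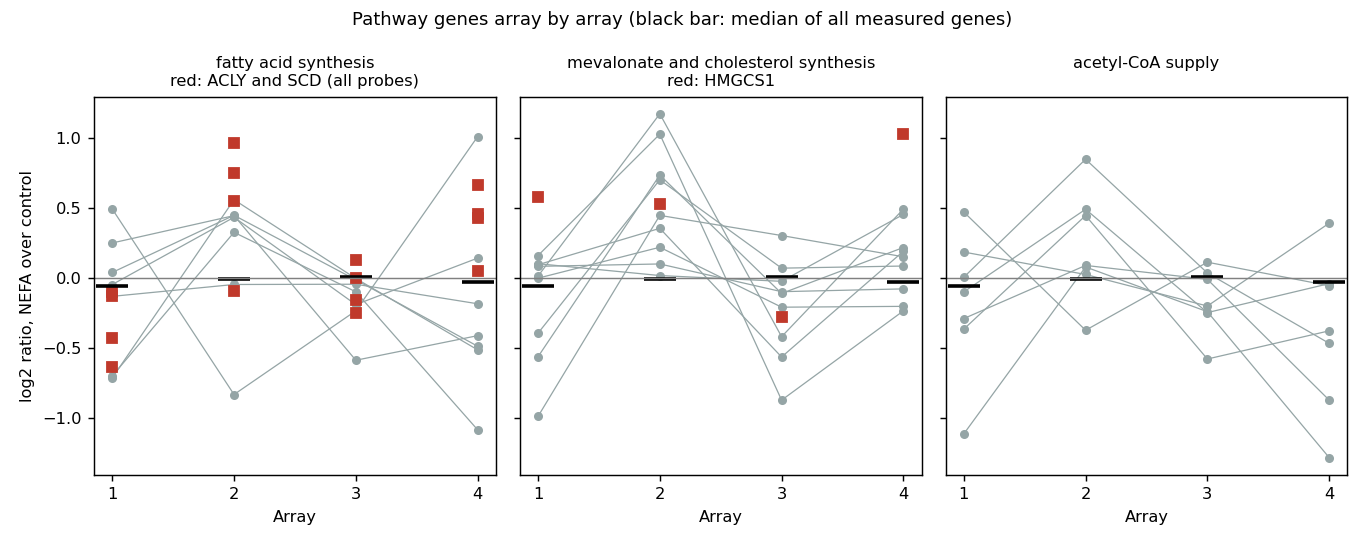
Log2 ratio of NEFA over control on each array for the measured genes of 3 pathway lists (grey, joined by gene), for the probes of ACLY, SCD and HMGCS1 (red squares) and for the median of all measured genes (black bars). As labelled, the grey sterol genes are all above 0 on array 2 (all below with its sign turned), and the red squares are above 0 throughout on array 4.

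Regulators of these pathways were measured for 12 of 17 genes with a probe, 10 above and 2 below 0, with a median of 0.11 and 0 past the test. Over all measured genes 46.1% were above 0, with a median of -0.01. PRKAA2, part of the AMP-activated kinase that restrains lipid synthesis, was at -0.36 ± 0.19 (SE, n = 4, limma unadjusted p = 0.104). Its probe was above background in 3 of 4 pools of each condition, and PRKAA1, of the same kinase, was at 0.11 ± 0.14 (SE). NR1H3, the liver X receptor alpha, which senses oxysterols, was at 0.27 ± 0.15 (SE) and above 0 on 4 of 4 arrays, but 1 of its 2 kept probes had the opposite sign. INSIG1, which holds the sterol regulatory element-binding proteins in the endoplasmic reticulum and is itself their target, was at 0.09 ± 0.14 (SE), with 0.53, 0.16, -0.19 and -0.15 on arrays 1 to 4. SREBF1 and SREBF2 had no named probe used here. Of 4 measured genes of sterol uptake and export 3 were below 0, among them the cholesterol exporter ABCA1 at -0.27 ± 0.14 and the lysosomal cholesterol transporter NPC1 at -0.26 ± 0.16 (SE).

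The genes whose 4 ratios were most like those of each enzyme were found among 4685 others, by the mean absolute difference over 4 arrays. For ACLY these were OAT, a mitochondrial aminotransferase of ornithine, at 0.09, then MAGT1 at 0.12 and SELP at 0.13. For SCD, by its brighter probe, they were BTBD18, WASL and BTBD19 at 0.04 each, where the small ratios leave little room to differ and the probe was saturated on arrays 1 and 2. For HMGCS1 the nearest were PSAP, PI4KB and CCNI at 0.23 each, a gap well above those of the other enzymes. Its ratios reached 1.03, and large ratios leave more room to differ. All 3 were below HMGCS1 on array 2, where PSAP was at 0.11, PI4KB at 0.00 and CCNI at -0.01 against 0.53. Between the enzymes themselves the difference was 0.40 for ACLY and HMGCS1. From the dimmer SCD probe, which was not saturated, it was 0.27 to ACLY and 0.49 to HMGCS1.

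**Figure D5:**
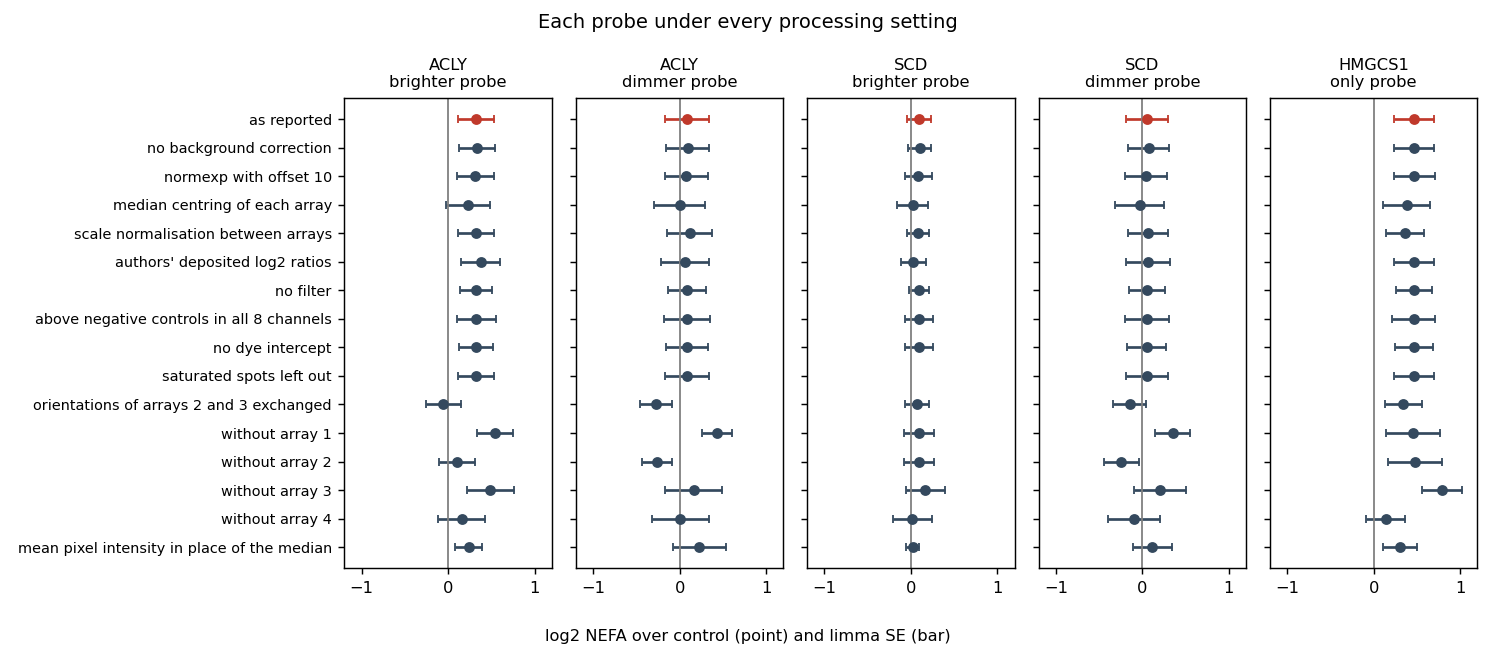
Log2 NEFA over control (points) with its limma SE (bars) for each probe, as reported (red) and under each processing alternative (dark). HMGCS1 stays above 0 throughout, from 0.14 without array 4 to 0.79 without array 3, whereas the dimmer probes of ACLY and SCD fall on either side of 0; the brighter SCD probe has no value with saturated spots left out.

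The authors' deposited table, turned by the labelled orientation, gave 0.59, 0.66, -0.32 and 0.93 for HMGCS1 on arrays 1 to 4. Array 4 was again highest and array 3 lowest, while arrays 1 and 2 changed places. For the dimmer ACLY probe it gave -0.48, 1.14, -0.30 and -0.10, so array 4 moved below 0. For the brighter SCD probe it gave -0.09, 0.04, -0.02 and 0.20, with arrays 2 and 3 on the other side of 0. In a limma fit of that table the enzymes were at 0.47 (HMGCS1), 0.38 (ACLY) and 0.03 (SCD), none past the test, and 2 of 17145 probes passed.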

How the data were processed

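RNA of 4 arrays, each with 1 NEFA and 1 control pool, was analysed. The deposited scanner files hold raw spot and background intensity in the Cy3 (532 nm) and Cy5 (635 nm) channels, per the file headers, not normalised. Flags are a deposited 0 or 1 per spot. Of tools, limma is listed in the submitters' processing notes. The authors' deposited table holds log2 ratios, which correlated at r = 0.966 to 0.995 with background-subtracted, loess-normalised Cy5 over Cy3. Its direction is therefore Cy5 over Cy3, and how it was centred is unknown.

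Median intensities were corrected with normexp (offset 50) and normalised by loess within arrays, with control spots at weight 0. Flagged spots were left out and saturated spots kept. A probe was kept if above background in at least 3 of 4 pools of 1 condition. Log2 levels per channel came from Aquantile normalisation. Ratios were fitted in limma 3.58.1 (R 4.3.3) with a dye intercept and a NEFA term, and two-sided p-values were adjusted by Benjamini-Hochberg over 17145 probes. The fit was tested on simulated data with changes larger than those of the 3 enzymes and noise drawn independently for each array. That test does not show how the fit performs on smaller changes. The headers name no slide or scan.

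A gene is represented by its brightest kept probe without a flagged spot. Besides the 3 enzymes, the 2 smallest p of each pathway list, a fixed set of 10 pathway genes where measured, and the 3 genes most like each enzyme were named. Other genes were named to say which were not measured, as cell markers or, for PRKAA1, beside PRKAA2. Members, lists and alternatives were chosen with earlier results of these data known. Symbols are those of the platform annotation and may be outdated. All 3 are in the current pig gene table (Sscrofa11.1).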

Additional observations from a re-analysis of the deposited data

How the results depend on the processing

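HMGCS1 kept its sign under 16 alternatives and SCD, by its brighter probe, under 15. As the ratios of that SCD probe on arrays 1 and 2 are upper limits, its sign is not established by this. In the fits that kept every array, no adjusted p of the probes of the 3 enzymes was under 0.05. Several alternatives could not move the estimate. Changing the filter or dropping the dye intercept left HMGCS1 at 0.47 and SCD at 0.09. For HMGCS1, so did leaving out saturated spots, as it had none, and averaging probes, as it has 1. These settings do not test whether the sign is stable. ACLY turned to -0.056 with the orientations of arrays 2 and 3 exchanged. With that exchange the dimmer ACLY probe was at -0.27, the dimmer SCD probe at -0.14, CYP51A1 at -0.062, SQLE at -0.24, OXCT1 at 0.42, NR1H3 at -0.063 and NPC1 at 0.16. With median centring the dimmer SCD probe was at -0.032 and SQLE at -0.011, and the median of all measured genes on array 1 moved from -0.06 to -0.16. INSIG1 was at -0.012 with no background correction. With mean pixel intensity, chosen after seeing the data, ELOVL2 was at 0.093 and BDH2 at 0.013. Leaving out each array gave 0.10 to 0.54 for ACLY, 0.02 to 0.17 for SCD and 0.14 to 0.79 for HMGCS1. It gave -0.26 to 0.43 and -0.24 to 0.35 for the dimmer ACLY and SCD probes, -0.25 to 0.40 for SQLE, -0.54 to 0.075 for OXCT1 and -0.0039 to 0.18 for INSIG1. The ranges of SLC25A1, PDK3 and NPC1 kept their sign, at -0.64 to -0.13, -0.49 to -0.054 and -0.41 to -0.11. Probes past the adjusted threshold numbered 0 as reported, 2 in the authors' deposited table and 1193 with the exchange. The count with both 1.5-fold and an unadjusted p under 0.05 was 52 (26 higher, 26 lower), 32 with no background correction (22 and 10), 82 with an offset of 10 (36 and 46), 81 with median centring (28 and 53), 81 with no filter (44 and 37), 1050 with the exchange (869 and 181), 44 with mean pixel intensity (30 and 14) and 85 to 383 with an array left out. Causes were not tested. Slide or scan as a block was not run. Saturation limits what the brighter SCD probe can show, and the signal of the others was well above background.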
